A study of Mus musculus with 24 samples.

Results

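The sterol arm of cholesterol synthesis is the chain of enzymes that turns farnesyl diphosphate into squalene, closes squalene into the ring system of lanosterol, and trims and reduces lanosterol to cholesterol. 9 of its genes were described, listed by name: Fdft1, Sqle, Lss, Cyp51, Msmo1, Nsdhl, Hsd17b7, Sc5d and Dhcr7. All 9 were found among the 46981 genes of the table, by matching its Ensembl identifiers to GENCODE symbols on GRCm38, and all 9 passed the filter on low values in both cohorts. RNA was measured in CD4 T cells of mice in 24 libraries, 8 groups of 3, from 2 cohorts. In the Acly cohort the knockout (KO) mice were CD4-Cre Acly fl/fl, in which Cre under control of the Cd4 gene removes ATP citrate lyase, the enzyme that makes acetyl-CoA from citrate in the cytosol. In the Pdha1 cohort the KO mice were Pdha1 fl/fl CD4CreERT2, in which an inducible Cre under the same control removes a subunit of pyruvate dehydrogenase, the enzyme that makes acetyl-CoA from pyruvate in mitochondria. No induction schedule is given in the sources used here, and neither are the ages and strains of the mice. Each cohort had wild-type (WT) mice of its own, and each genotype was measured after 24 h of activation through CD3 and CD28 and at rest, where the labels record no treatment. All groups shared a medium of RPMI with 15% serum, a source of cholesterol from outside the cells, and 2 mM glutamine. The labels do not say whether the 3 libraries of a group came from separate animals.

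Cholesterol is built from cytosolic acetyl-CoA through the mevalonate arm and then the sterol arm, and dividing lymphocytes need it for new membranes. Genes of both arms are classic targets of the transcription factor SREBP2, which is held in the endoplasmic reticulum while sterols are plentiful and released to the nucleus when they run low. T cells are known to switch this program on when they are activated.

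The promoters are shown first, as a description of sequence, and their part in how the 9 genes answered activation was not tested. The stretches below are the bases before the RefSeq start site (GRCm38.p6), cut back where GENCODE places the gene's start farther out. They come from 2 genes that were higher after activation in both genotypes of the Acly cohort (Cyp51 at chr5:4104747-4104947 (- strand) and Nsdhl at chrX:72918271-72918520 (+ strand)), from Lss at chr10:76531355-76531587 (+ strand), which passed limma's test in KO cells and not in WT cells, and from Hsd17b7 at chr1:169969242-169969455 (- strand), which passed limma's test in neither. Capitals mark matches on either strand to CCAAT (the core bound by NF-Y), GGGCGG (a core bound by Sp1) and CACGTG (an E-box, bound by SREBPs and by Myc among others).
Cyp51: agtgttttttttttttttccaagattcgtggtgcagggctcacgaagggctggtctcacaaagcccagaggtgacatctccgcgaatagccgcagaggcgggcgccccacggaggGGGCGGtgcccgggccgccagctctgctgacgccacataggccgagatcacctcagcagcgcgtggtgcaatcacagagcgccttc
Nsdhl: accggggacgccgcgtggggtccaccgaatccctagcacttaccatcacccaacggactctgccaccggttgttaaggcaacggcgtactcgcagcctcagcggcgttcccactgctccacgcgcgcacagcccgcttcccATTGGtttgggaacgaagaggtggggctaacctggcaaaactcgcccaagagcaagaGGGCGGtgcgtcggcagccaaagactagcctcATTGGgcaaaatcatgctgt
Lss: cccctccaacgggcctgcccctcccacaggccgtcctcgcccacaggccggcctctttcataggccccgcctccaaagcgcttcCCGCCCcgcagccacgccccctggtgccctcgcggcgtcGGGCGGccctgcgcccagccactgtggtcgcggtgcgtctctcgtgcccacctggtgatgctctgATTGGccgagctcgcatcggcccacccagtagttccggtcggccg
Hsd17b7: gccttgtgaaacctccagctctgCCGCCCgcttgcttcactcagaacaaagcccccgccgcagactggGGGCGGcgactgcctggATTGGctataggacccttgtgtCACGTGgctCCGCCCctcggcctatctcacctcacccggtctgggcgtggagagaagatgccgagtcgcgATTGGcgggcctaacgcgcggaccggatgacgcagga

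RefSeq windows of 300 bases, 250 before and 50 after the start, were found for 7 of the 9 genes (all but Fdft1 and Sqle). Both strands were searched, and Dhcr7, with 3 windows, was counted as holding a motif if any window did. CCAAT was found in 7 of the 7 genes and in 37.4% of all 32817 windows, and GGGCGG in 7 of the 7 genes and in 35.6% of windows. CACGTG was found in 3 genes, Hsd17b7, Sc5d and Dhcr7, and in 7.15% of windows. TCACNCCAC, the core of the sterol regulatory element first described in the LDL receptor promoter, was found in 0 of the 7 genes and in 1.24% of windows; other forms of the element were not searched. Some matches lie in bases that are not printed. These are matches of letters, and the windows hold no measurement of binding.

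Library depth was low and background was high at rest, which bears on every resting value. Recovered counts came to 388902 to 1087675 per library. A single count was worth 0.677 to 2.28 RPM (reads scaled to a total of 1000000), and 3 counts, taken as the floor of detection, 2.03 to 6.84 RPM. The RPM were scaled to totals after the correction for collisions described below, which are larger than the recovered counts. Genes of the olfactory and vomeronasal receptor families, counted as background in T cells, summed to 30239 to 41180 RPM in activated and 95847 to 110190 RPM in resting libraries of the Acly cohort. In no resting library of that cohort did any of the 9 genes exceed the 90th percentile of single receptor genes (52.4 to 73.4 RPM), whereas 4 to 9 of them did in each activated library (15.7 to 26.3 RPM). The T cell markers (8 genes summed) stood at 1255 to 1290 RPM in activated Acly KO cells and 1511 to 1774 RPM in activated WT cells, and the part of this difference in the results was not tested. Other cell types' marker sums overlapped between those 2 groups. Sex was not balanced between those 2 groups. The Y-linked Ddx3y stood at 78.0, 1.76 and 4.28 RPM in activated Acly KO libraries and 74.4, 93.7 and 5.28 RPM in activated WT libraries. Xist stood at 6.80, 56.0 and 132 RPM in activated KO and 3.99, 9.48 and 63.9 RPM in activated WT libraries. KO libraries 2 and 3 and WT library 3 were thus the ones high in Xist, and the part of sex in the results was not tested. Erythroid markers (4 genes summed) reached 19220 RPM in the Pdha1 cohort. The Acly transcript stood at 11.3, 10.6 and 15.0 RPM in activated Acly KO libraries 1 to 3 and 104, 111 and 109 RPM in activated WT libraries. At rest it overlapped between the genotypes and checks no label, at 8.0, 1.06 and 5.04 RPM in resting KO and 5.80, 9.87 and 8.94 RPM in resting WT libraries. The Pdha1 transcript overlapped between activated KO and WT libraries of its own cohort and checks no label there: it stood at 30.4, 27.4 and 20 RPM in activated Pdha1 KO and 84.7, 40.8 and 5.35 RPM in activated WT libraries. 2 libraries of the Pdha1 cohort went against their labels. The library labelled KO resting 3 had 92.2 RPM of Tfrc, the transferrin receptor that rises on activation, against 6.59 and 10.1 RPM in the other KO resting libraries, and the library labelled WT activated 3 had 5.35 RPM, against 235 and 88.8 RPM in the other WT activated libraries. Counts of called genes, medians and counts of groups that do not overlap are therefore given for the Pdha1 cohort with and without these 2.

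**Figure D1:**
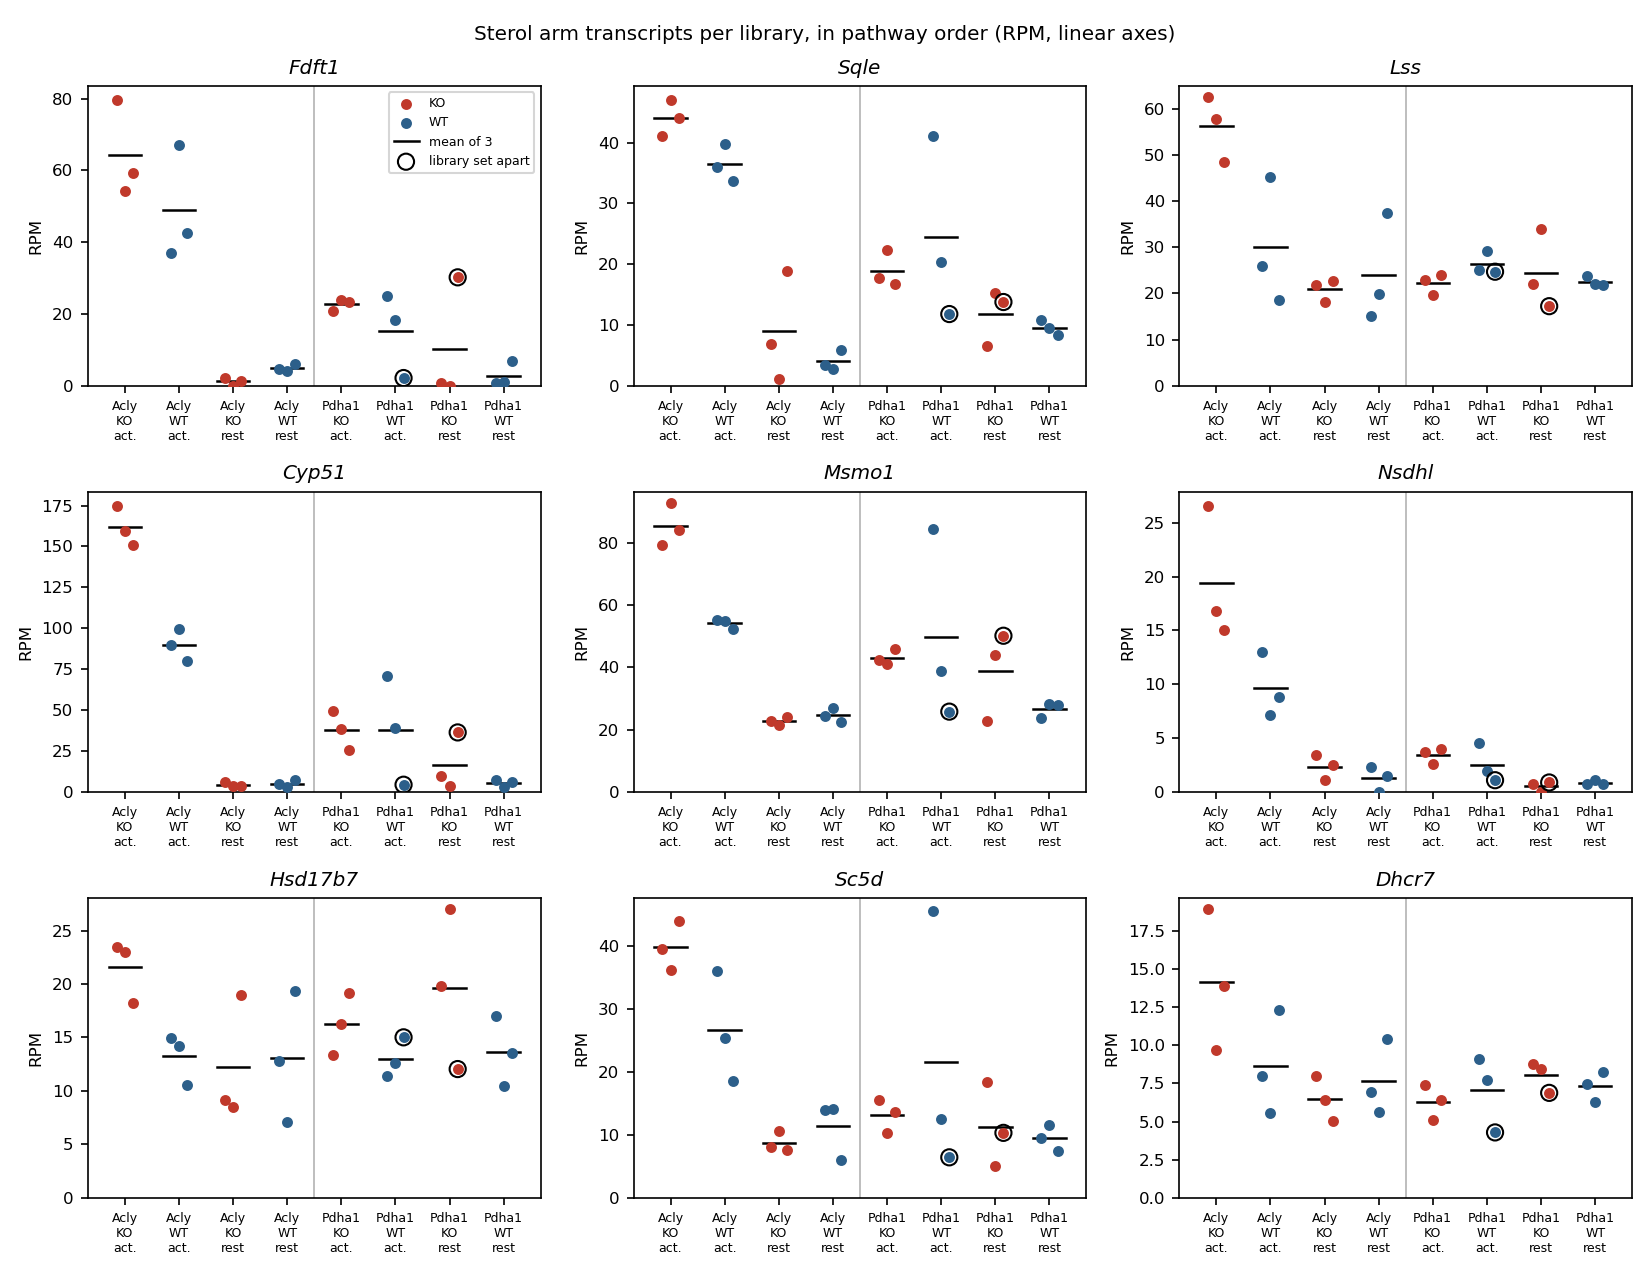
Levels of the 9 genes in every library, in pathway order. Each panel is a gene, the y axis is RPM on a linear scale from 0, columns are the 8 groups (act., activated; rest, resting), points are libraries, bars are means of 3, and circled points are the 2 libraries of the Pdha1 cohort that went against their labels. The activated Acly KO group has the highest mean in all 9 panels, and for Cyp51 its libraries lie at 151 to 175 RPM, above every other library.

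The highest of the 8 group means was that of activated Acly KO cells for all 9 genes. For 6 of them (Sqle, Lss, Cyp51, Msmo1, Nsdhl and Sc5d) its 3 libraries lay above every library of the group next in order, which was activated WT cells of the same cohort. For Lss, Cyp51 and Nsdhl they lay above every other library of the series. For Sqle, Msmo1 and Sc5d they did not, because Pdha1 WT activated library 1 stood at 41.1 RPM for Sqle and 84.7 RPM for Msmo1, inside the range of the top group, and at 45.7 RPM for Sc5d, above it. For Fdft1, Hsd17b7 and Dhcr7 the top 2 groups overlapped. Further down the order most neighbours overlapped: 5 to 7 of the 7 neighbouring pairs of groups did, for each gene. The lowest mean was that of resting Acly KO cells for 6 genes (Fdft1, Lss, Cyp51, Msmo1, Hsd17b7 and Sc5d), resting Acly WT cells for Sqle, resting Pdha1 KO cells for Nsdhl and activated Pdha1 KO cells for Dhcr7. Levels are in RPM and not per length, so they are compared within a gene.

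In activated cells, all 9 sterol arm genes had higher estimates in Acly KO than in WT cells, by log2 changes of 0.27 to 0.99, but none passed the test across all genes. The median over the 9 was 0.69, against -0.05 over the 31311 genes tested, of which 45.4% had positive estimates. limma's test with Benjamini-Hochberg adjustment called 0 of the 9 (adjusted p = 1 for each), where it called 0.0% of all genes higher and 0.00639% in either direction. At an unadjusted p under 0.05, 3 of the 9 were higher (Lss, Cyp51 and Msmo1), against 1.33% of all genes. 7 of the 9 (all but Fdft1 and Dhcr7) had every KO library above every WT library, against 3.56% of all genes. edgeR's quasi-likelihood test and DESeq2 on recovered counts also called 0 of the 9, with 8 (2.53% of all genes) and 4 (0.623% of all genes) higher at an unadjusted p under 0.05. In bulk RNA, more cells of a kind and more RNA per cell cannot be told apart. The genes are described in the order of their steps.

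Fdft1 (ENSMUSG00000021273, chr14:63145150-63179578, - strand) encodes squalene synthase, which joins 2 farnesyl units and commits them to sterols. It stood at 79.5, 54.2 and 59.2 RPM in activated Acly KO libraries and 37.0, 67.0 and 42.5 RPM in activated WT libraries. WT library 2 lay above KO libraries 2 and 3, and the log2 change was 0.42 ± 0.47 (SE), with an unadjusted p of 0.374 by limma. Its end overlaps Ctsb, a cathepsin gene on the opposite strand, over 774 bases. The kit marks strand, but whether the counting used it is not given in the sources used here, so reads of that stretch are uncertain. Ctsb stood at 147, 173 and 119 RPM in activated Acly KO and 142, 193 and 151 RPM in activated WT libraries.

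Sqle (ENSMUSG00000022351, chr15:59315077-59331192, + strand) encodes squalene epoxidase, the oxygen-dependent step that is often rate-limiting. It stood at 41.0, 47.0 and 44.0 RPM in activated Acly KO libraries and 36.0, 39.7 and 33.6 RPM in activated WT libraries. The groups did not overlap but lay close together, and the change was the smallest of the 9 (log2 0.27 ± 0.59).

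Lss (ENSMUSG00000033105, chr10:76531588-76557138, + strand) encodes lanosterol synthase, which folds the epoxide into the sterol rings. It stood at 62.5, 57.7 and 48.4 RPM in activated Acly KO libraries and 26.0, 45.3 and 18.5 RPM in activated WT libraries. Every KO library was above every WT library, by a log2 change of 0.99 ± 0.34, a fold of 1.98 on the scale of log2(RPM + 0.5). Its unadjusted p in limma was 0.0064, the lowest of the 9. In edgeR its log2 change was 1.00 (adjusted p = 0.0918), and over the 23 alternative settings its adjusted p ran from 0.0918 to 1.

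Cyp51 (ENSMUSG00000001467, chr5:4081145-4104746, - strand) encodes lanosterol demethylase, a cytochrome P450 that takes the first methyl group off lanosterol. It stood at 175, 159 and 151 RPM in activated Acly KO libraries (162 ± 11.9, SD, n = 3) and 89.7, 99.3 and 80.1 RPM in activated WT libraries (89.7 ± 9.62). The lowest KO library was well above the highest WT library, and the log2 change was 0.85 ± 0.34 (limma, unadjusted p = 0.0173). Its adjusted p was 1 in limma, 0.0727 in edgeR (log2 change 0.95) and 0.0147 where limma was fitted to these 2 groups alone, the only one of the 23 alternative settings in which any of the 9 was called (0.018% of all genes were called higher there). The gene overlaps Akap9, which encodes a kinase anchoring protein on the opposite strand, over 166 bases. Akap9 also had every KO library above every WT library, at 35.7, 37.2 and 31.1 RPM in activated Acly KO and 17.0, 19.0 and 26.5 RPM in activated WT libraries, and its part in the Cyp51 value was not tested.

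Msmo1 (ENSMUSG00000031604, chr8:64718139-64733792, - strand) encodes the sterol methyl oxidase, which begins the removal of the remaining methyl pair. It stood at 79.5, 92.8 and 84.2 RPM in activated Acly KO libraries (85.5 ± 6.76, SD, n = 3) and 55.2, 54.9 and 52.3 RPM in activated WT libraries (54.1 ± 1.59). The groups were far apart relative to their spread, with a log2 change of 0.65 ± 0.28 (limma, unadjusted p = 0.0239, adjusted p = 1).

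Nsdhl (ENSMUSG00000031349, chrX:72918557-72958514, + strand) encodes the X-linked sterol dehydrogenase that follows Msmo1 in demethylation. It stood at 26.5, 16.8 and 15.0 RPM in activated Acly KO libraries and 13, 7.11 and 8.81 RPM in activated WT libraries. No KO library reached down to the WT libraries, but the estimate was loose (log2 change 0.97 ± 0.62). Hsd17b7 (ENSMUSG00000026675, chr1:169949535-169969241, - strand) encodes the keto-reductase that completes each round of demethylation. It stood at 23.5, 23.0 and 18.2 RPM in activated Acly KO libraries and 15.0, 14.2 and 10.6 RPM in activated WT libraries. These groups did not overlap either (log2 change 0.69 ± 0.41).

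Sc5d (ENSMUSG00000032018, chr9:42251595-42264256, - strand) encodes the sterol desaturase that makes the substrate of the last reductase. It stood at 39.5, 36.3 and 44.0 RPM in activated Acly KO libraries and 36.0, 25.3 and 18.5 RPM in activated WT libraries. The lowest KO library was just above the highest WT library (log2 change 0.62 ± 0.38). Dhcr7 (ENSMUSG00000058454, chr7:143823145-143848410, + strand) encodes that last reductase, which yields cholesterol and whose loss in humans causes Smith-Lemli-Opitz syndrome. It stood at 18.9, 9.71 and 13.9 RPM in activated Acly KO libraries and 7.98, 5.53 and 12.3 RPM in activated WT libraries. WT library 3 lay above KO library 2, so the groups overlapped (log2 change 0.71 ± 0.47).

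At rest most of the 9 genes had lower estimates in Acly KO than in WT cells, and none passed the test across all genes. 7 of the 9 genes had lower and 2 had higher estimates in Acly KO cells, with a median log2 change of -0.11, against 0.02 over all genes tested. limma called 0 of the 9 and 0.0% of all genes, and at an unadjusted p under 0.05 it gave 1 of the 9 lower, against 2.89% of all genes. edgeR and DESeq2 called 0 as well, with 1 higher (Sqle; 2.18% of all genes) and 1 lower (1.73%) in edgeR and 1 lower (0.866%) in DESeq2 at an unadjusted p under 0.05. The gene with the lowest p was Fdft1. It stood at 2.28, 0 and 1.26 RPM in resting Acly KO libraries and 4.64, 4.23 and 5.96 RPM in resting WT libraries. These are 3 recovered counts in all in KO and 11 in WT libraries, at or near the floor, and every KO library lay below every WT library, as 3.74% of all genes did. Its log2 change was -2.0 ± 0.47 (limma, unadjusted p = 0.000109, adjusted p = 0.226; 0.0284 to 1 over 23 alternative settings, below the threshold without the filter on low values and without KO library 1). The other 8 had log2 changes of -0.28 to 0.91. Msmo1, for example, stood at 22.9, 21.3 and 24.0 RPM in resting Acly KO libraries and 24.4, 26.8 and 22.4 RPM in resting WT libraries, which overlapped. Lss stood at 21.8, 18.1 and 22.7 RPM in resting KO and 15.1, 19.8 and 37.3 RPM in resting WT libraries, where the WT spread held every KO value.

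**Figure D2:**
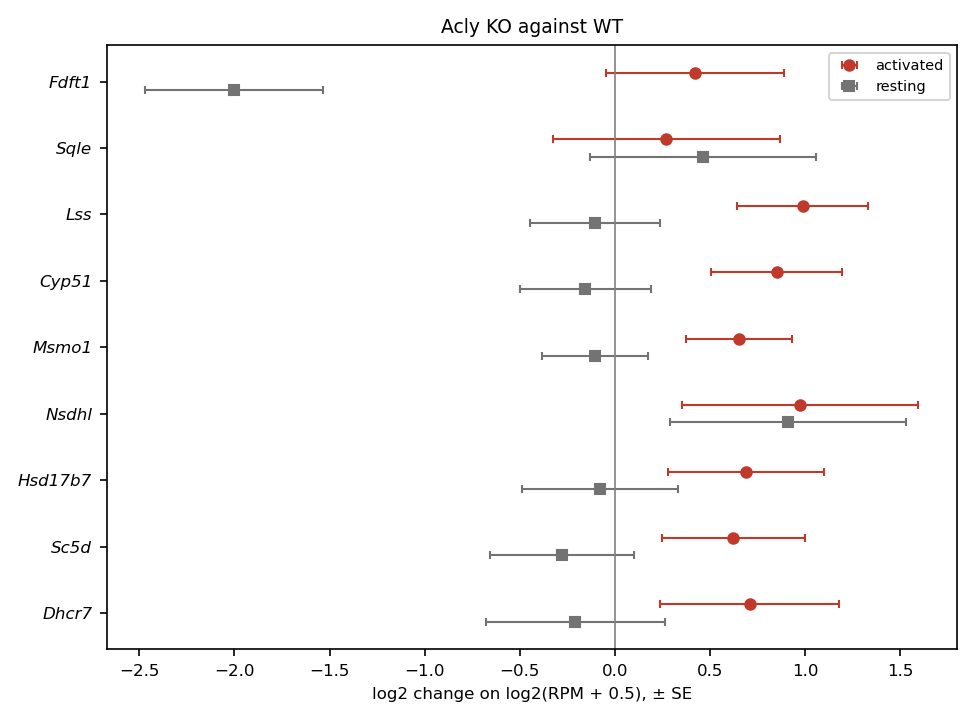
Log2 change of Acly KO against WT for each gene, in activated (red circles) and resting cells (grey squares), from limma on log2(RPM + 0.5). Bars are standard errors; values right of 0 are higher in KO cells. All 9 activated estimates lie right of 0, at 0.27 to 0.99, while resting ones lie on both sides, with Fdft1 at -2.0.

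Most of the arm was higher after activation in Acly KO cells. 7 of the 9 genes were called higher in activated than in resting Acly KO cells by limma with Benjamini-Hochberg adjustment, against 20.7% of all genes, and none was called lower, against 26.7%. Their log2 changes were 5.57 ± 0.47 for Fdft1, 5.13 ± 0.34 for Cyp51, 2.87 ± 0.59 for Sqle, 2.87 ± 0.62 for Nsdhl, 2.14 ± 0.38 for Sc5d, 1.89 ± 0.28 for Msmo1 and 1.41 ± 0.34 for Lss (± SE). The highest adjusted p among these 7 was 0.000898. Dhcr7, at 1.05 ± 0.47, and Hsd17b7, at 0.88 ± 0.41, did not pass (adjusted p = 0.0626 and 0.0728). edgeR called 9 of 9, against 25.5% of all genes, and DESeq2 called 9 as well, against 21.8%. Both genes passed under TMM scaling too, within ranges of adjusted p over 23 alternative settings of 0.000453 to 0.338 for Dhcr7 and 0.000252 to 0.474 for Hsd17b7. The median of the 9 was 2.14, against -0.67 over all genes.

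In WT cells of the Acly cohort 6 of the 9 were called higher on activation, against 21.4% of all genes, and again none lower, against 23.8%. They were Cyp51 (4.13 ± 0.34), Fdft1 (3.15 ± 0.47), Sqle (3.07 ± 0.59), Nsdhl (2.80 ± 0.62), Sc5d (1.24 ± 0.38) and Msmo1 (1.13 ± 0.28), with adjusted p of at most 0.00688 in limma. Lss (0.32 ± 0.34), Dhcr7 (0.13 ± 0.47) and Hsd17b7 (0.11 ± 0.41) did not pass. Under a scaling to protein-coding genes outside the receptor families these 3 had negative estimates, and Msmo1 and Sc5d no longer passed (adjusted p = 0.0575 and 0.092). edgeR called 7, against 25.6% of all genes, adding Lss (log2 change 0.91, adjusted p = 0.00949; 0.00949 to 0.966 over 23 alternative settings), and DESeq2 called 6, against 21.3%. Sc5d was lost without WT activated library 1 or WT resting library 3 (adjusted p = 0.0631 and 0.0612). The median of the 9 was 1.24, against -0.61 over all genes.

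The largest folds rest on resting levels close to the floor. Fdft1 had 220 counts in activated and 3 in resting Acly KO cells, a ratio of 51.9 after division by totals of recovered counts. Its exact 95% interval of 17.5 to 254 covers counting error only. In WT cells it had 169 and 11 counts, a ratio of 9.04 (4.93 to 18.5). Ctsb, on the other strand, also had every activated library above every resting one, at 147, 173 and 119 RPM in activated and 14.9, 19.2 and 16.4 RPM in resting Acly KO libraries. Its part in the Fdft1 rise was not tested. Cyp51 stood at 5.71, 3.19 and 3.78 RPM in resting Acly KO and 4.64, 2.82 and 7.45 RPM in resting WT libraries, far below the activated libraries given above. Its counts were 541 and 11 in KO cells, a ratio of 34.8 (19.3 to 70.1), and 303 and 11 in WT cells, a ratio of 16.2 (8.93 to 32.8). Nsdhl stood at 3.43, 1.06 and 2.52 RPM in resting KO and 2.32, 0 and 1.49 RPM in resting WT libraries, with 68 and 6 counts in KO cells (ratio 8.02, 3.5 to 22.6) and 32 and 3 in WT cells (6.28, 1.96 to 32.1).

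For Sqle the resting KO libraries disagreed, at 6.86, 1.06 and 18.9 RPM, against 3.48, 2.82 and 5.96 RPM in resting WT libraries. Even the highest of them lay below every activated library of the cohort. Sqle had 124 counts in activated and 9 in resting WT cells, also near the floor, a ratio of 8.11 (4.137 to 18.15). In KO cells it had 148 and 22 counts, a ratio of 4.76 (3.03 to 7.83). Sc5d stood at 8.0, 10.7 and 7.57 RPM in resting KO and 13.9, 14.1 and 5.96 RPM in resting WT libraries, again with every activated library higher. Hsd17b7 stood at 9.15, 8.52 and 18.9 RPM in resting KO and 12.8, 7.05 and 19.4 RPM in resting WT libraries, so that both genotypes overlapped between the states. Dhcr7 stood at 8.0, 6.39 and 5.04 RPM in resting KO and 6.96, 5.64 and 10.4 RPM in resting WT libraries, with an overlap between the states in WT cells and none in KO cells.

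**Figure D3:**
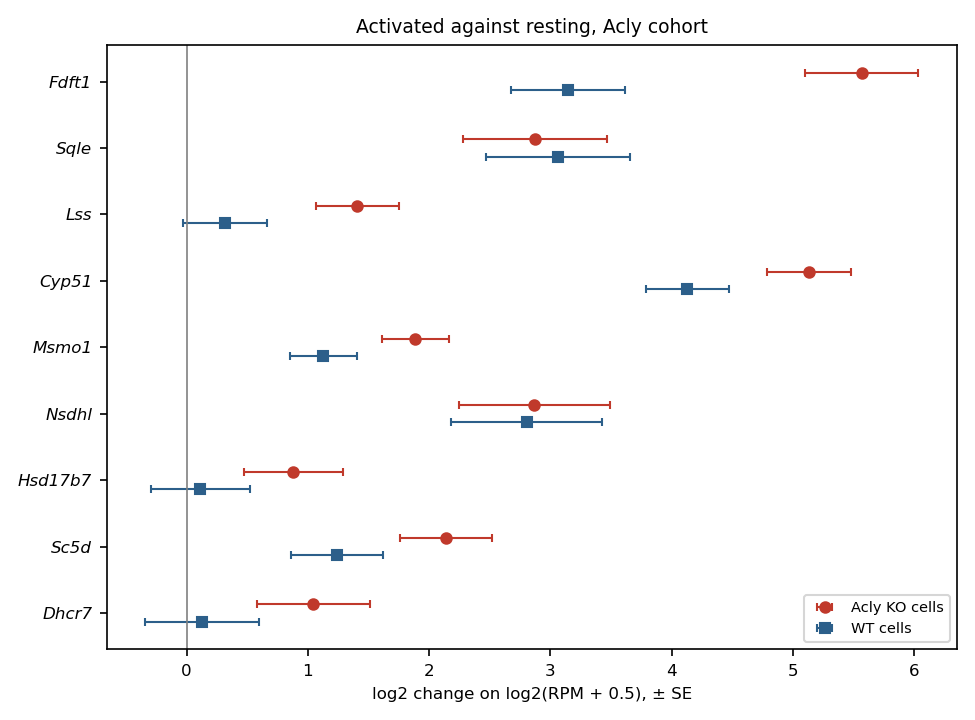
Log2 change of activated against resting cells of the Acly cohort, for Acly KO cells (red circles) and WT cells (blue squares), from limma on log2(RPM + 0.5). Bars are standard errors; values right of 0 are higher after activation. Fdft1 lies at 5.57 in KO and 3.15 in WT cells, and Lss at 1.41 in KO and 0.32 in WT cells.

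Whether activation differed between the genotypes was tested as an interaction. Its estimate was positive (a larger rise in KO cells) for 8 of the 9 genes, with a median of 0.90, against -0.09 over all genes. limma called 0 of the 9 and 0.0% of all genes. At an unadjusted p under 0.05, 3 were positive, against 1.68% of all genes. They were Fdft1 at 2.42 ± 0.66 (limma, unadjusted p = 0.000705, adjusted p = 1), Lss at 1.09 ± 0.49 (limma, unadjusted p = 0.0301, adjusted p = 1) and Cyp51 at 1.00 ± 0.48 (limma, unadjusted p = 0.0444, adjusted p = 1). The Fdft1 estimate combines a log2 change of 0.42 (KO against WT) in activated cells with -2.0 at rest, from 3 and 11 counts near the floor. At an unadjusted p under 0.05, edgeR and DESeq2 gave Fdft1 (0.00408 and 0.0156), Lss (0.00995 and 0.0483) and Msmo1 (0.0465 and 0.0459). In these tools 671 and 268 of the 31311 genes were positive at that threshold. Cyp51 was not under it (unadjusted p = 0.11 and 0.102). Over 22 alternative settings, edgeR and DESeq2 among them, 0 of the 9 were called, and the lowest adjusted p was 0.312 (Fdft1). Sqle, at -0.19 ± 0.84, and Nsdhl, at 0.07 ± 0.88, had estimates near 0 with wide errors. For Lss the passing of the test in KO cells and not in WT cells is thus not a shown difference between them.

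Neighbouring parts of the pathway were set beside the 9 genes by lists. In activated cells, 8 of 9 mevalonate arm genes had higher estimates in Acly KO than in WT cells (median log2 change 0.66), and 6 of them had every KO library above every WT library, against 3.56% of all genes. Hmgcs1, which makes the substrate of the rate-limiting reductase of the arm, had the lowest p of the list. It stood at 226, 135 and 162 RPM in activated Acly KO libraries and 44.1, 71.0 and 64.8 RPM in activated WT libraries, a log2 change of 1.53 ± 0.34 (limma, unadjusted p = 7.19e-05, adjusted p = 0.45). Idi1, the isomerase, followed at 0.78 ± 0.34 and Acat2, the cytosolic thiolase, at 0.66 ± 0.31, with adjusted p of 1 in limma.

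Of 5 further enzymes of the sterol arm, 4 were tested in activated cells, and 1 had a higher and 3 a lower estimate in Acly KO than in WT cells. Lbr, a reductase that also anchors chromatin at the nuclear envelope, had the lowest p, at 27.3, 13.2 and 22.5 RPM in activated KO and 30.0, 44.5 and 27.4 RPM in activated WT libraries (log2 change -0.71 ± 0.36, unadjusted p = 0.0535 by limma). Tm7sf2, which catalyses the same reduction as Lbr, had log2 changes of -0.10 ± 0.37 in activated cells and 0.82 ± 0.37 at rest (limma, unadjusted p = 0.0344, adjusted p = 0.822).

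The sterol sensing list (14 of 16 genes tested) was centred near 0 in activated cells, with a median log2 change of 0.06. Its lowest p belonged to Nr1h2, the sterol receptor LXR beta, at 34.2, 47.0 and 43.0 RPM in activated Acly KO and 52.2, 74.2 and 60.4 RPM in activated WT libraries (log2 change -0.58 ± 0.33). Scap, the escort of SREBPs, also had every KO library below every WT library, at 11.3, 8.82 and 18.2 RPM in activated KO and 20, 21.4 and 25.6 RPM in activated WT libraries (-0.83 ± 0.51). Mylip, a ligase that degrades the LDL receptor, had the second lowest p and a higher estimate in KO cells, 0.87 ± 0.50, at 6.80, 5.29 and 11.8 RPM in KO and 2.99, 5.53 and 3.52 RPM in WT libraries, which overlapped. Srebf2, which encodes SREBP2 itself, had a log2 change of 0.05 ± 0.29. The cofactor list (7 genes) holds, among others, the P450 reductase Por and cytochrome b5 proteins, which feed electrons to some of these enzymes. Not every gene of the list is such a donor. Its median was -0.01, with Por at 0.37 ± 0.33. limma called none of these genes in activated or resting Acly KO against WT cells. At rest Fdxr, a ferredoxin reductase, had the lowest p of the cofactor list (-1.47 ± 0.71, unadjusted p = 0.0445, adjusted p = 0.874 by limma).

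On activation limma called 20.7% of all genes higher and 26.7% lower in Acly KO cells, and 21.4% higher and 23.8% lower in WT cells, against which the counts of each list are read. 8 of 9 mevalonate arm genes were called higher in Acly KO cells and 8 in WT cells, and Ggps1, which leads away from sterols, was the one not called in either. 6 of 7 cofactor genes were called higher in KO and 6 in WT cells, among them Por, at 2.75 ± 0.33 in KO and 2.12 ± 0.33 in WT cells. Among the sterol sensing genes 7 were called higher and 2 lower in each genotype. Srebf2 was higher at 1.62 ± 0.29 in KO and 1.54 ± 0.29 in WT cells, and Abcg1, a sterol exporter, lower at -1.20 ± 0.36 in KO and -1.29 ± 0.36 in WT cells. Of the further sterol arm enzymes, 2 of 4 were called higher in KO and 3 of 4 in WT cells, with Ebp, a sterol isomerase, at 2.97 ± 0.33 in KO and 2.73 ± 0.33 in WT cells. Lbr, at 0.38 ± 0.36 in KO and 1.38 ± 0.36 in WT cells, was called in WT cells, and the difference between the genotypes did not pass as an interaction (limma, adjusted p = 1).

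In the Pdha1 cohort no sterol arm gene passed the test between the genotypes. In activated cells the log2 changes of Pdha1 KO against WT ran from -0.26 to 1.09, with a median of -0.03, against 0.26 over the 30357 genes tested, and at rest from -0.48 to 0.97, with a median of 0.17, against 0.04 over all genes. limma called 0 of the 9 and 0.0% of all genes in both states, and 0 of the 9 had an unadjusted p under 0.05 in limma; edgeR and DESeq2 called 0 too. The standard errors, 0.38 to 1.39, were wide, most of all for Fdft1. Only Lss had all activated KO libraries below all WT libraries, at 23.0, 19.7 and 24.0 RPM in KO and 25.1, 29.1 and 24.7 RPM in WT libraries, as 1.74% of all genes did. Without the 2 libraries that went against their labels the median was -0.40 in activated cells, against 0.35 over all genes, and 0.12 in resting cells, against 0.12 over all genes, and limma again called 0 of the 9. In activated cells 1 gene (Hsd17b7) then had every KO library above every WT library (17.2% of all genes) and 2 (Lss and Dhcr7) every KO library below (14.5%). Without WT activated library 1 as well, the activated median was 0.04, against -0.06 over all genes.

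Activation in the Pdha1 cohort depended on those 2 libraries. Cyp51 stood at 49.1, 38.6 and 25.6 RPM in activated and 9.53, 3.38 and 36.3 RPM in resting Pdha1 KO libraries. In WT cells it stood at 70.9, 38.8 and 4.28 RPM in activated and 7.46, 3.14 and 6.01 RPM in resting libraries. The third library of resting KO and of activated WT cells each lay among the values of the opposite state. Fdft1 likewise had its highest resting KO value and its lowest activated WT value in those libraries, at 20.7, 24.0 and 23.2 RPM in activated and 0.732, 0 and 30.2 RPM in resting KO libraries. In WT cells it stood at 25.1, 18.4 and 2.14 RPM in activated and 0.677, 1.04 and 6.76 RPM in resting libraries.

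With all 12 libraries limma called 0 of the 9 genes on activation of Pdha1 KO cells (0.0% of all genes) and 0 on activation of WT cells (0.0% of all genes). At an unadjusted p under 0.05, limma gave 2 higher in KO cells (Fdft1 and Nsdhl), against 1.78% of all genes, and 1 in WT cells (Sqle), against 7.73%. edgeR called 0 in both, and DESeq2 0 in KO and 1 (Cyp51) in WT cells, against 5.66% of all genes. Without the 2 libraries, Fdft1 (4.88 ± 0.74, adjusted p = 0.000442) and Cyp51 (2.57 ± 0.51, adjusted p = 0.00367) were called higher by limma in KO cells, against 7.0% of all genes. In WT cells the calls were Fdft1 (3.22 ± 0.74, adjusted p = 0.00463), Cyp51 (3.21 ± 0.51, adjusted p = 0.000196), Sqle (1.56 ± 0.47, adjusted p = 0.0211) and Msmo1 (1.09 ± 0.40, adjusted p = 0.0492), against 14.9% of all genes. Over 25 alternative settings the adjusted p ran from 3.84e-05 to 1 for Fdft1 and from 0.000516 to 1 for Cyp51 in KO cells, and in WT cells the highest was 0.908 to 0.932 for these 4 genes. These limma values came from 3 activated and 2 resting KO libraries and from 2 activated and 3 resting WT libraries, and leaving out libraries that look unlike their label favours a difference between the states. Without WT activated library 1 as well, which had the lowest background and the fewest counts of its group, Fdft1 and Cyp51 were the 2 called in KO cells (8.22% of all genes) and the 2 called in WT cells (7.34% of all genes). The WT values then rested on 1 activated library, which was assumed to vary like the other groups.

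Nsdhl was low throughout this cohort, at 3.69, 2.56 and 3.99 RPM in activated and 0.732, 0 and 0.859 RPM in resting Pdha1 KO libraries, or 13 and 2 counts. Hsd17b7 stood at 13.3, 16.3 and 19.2 RPM in activated and 19.8, 27.1 and 12 RPM in resting Pdha1 KO libraries, and Dhcr7 at 7.39, 5.13 and 6.39 RPM in activated and 8.80, 8.44 and 6.88 RPM in resting ones. Both overlapped between the states and did not pass limma's test in either genotype. Without KO resting library 3 every activated library lay below every resting one for both, as for 21.4% of all genes. Sqle stood at 17.8, 22.3 and 16.8 RPM in activated and 6.59, 15.2 and 13.8 RPM in resting KO libraries. Sqle and Nsdhl were the 2 of the 9 with every activated KO library above every resting one, against 3.47% of all genes, and in WT cells there were 3 (Sqle, Lss and Nsdhl), against 5.87%. Without the 2 libraries these counts were 4 in KO cells (Fdft1, Sqle, Cyp51 and Nsdhl), against 20.3% of all genes, and 7 in WT cells (all but Hsd17b7 and Dhcr7), against 22.8%. Msmo1 stood at 42.4, 41.2 and 45.8 RPM in activated and 22.8, 44.0 and 50.2 RPM in resting KO libraries, which overlapped.

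**Figure D4:**
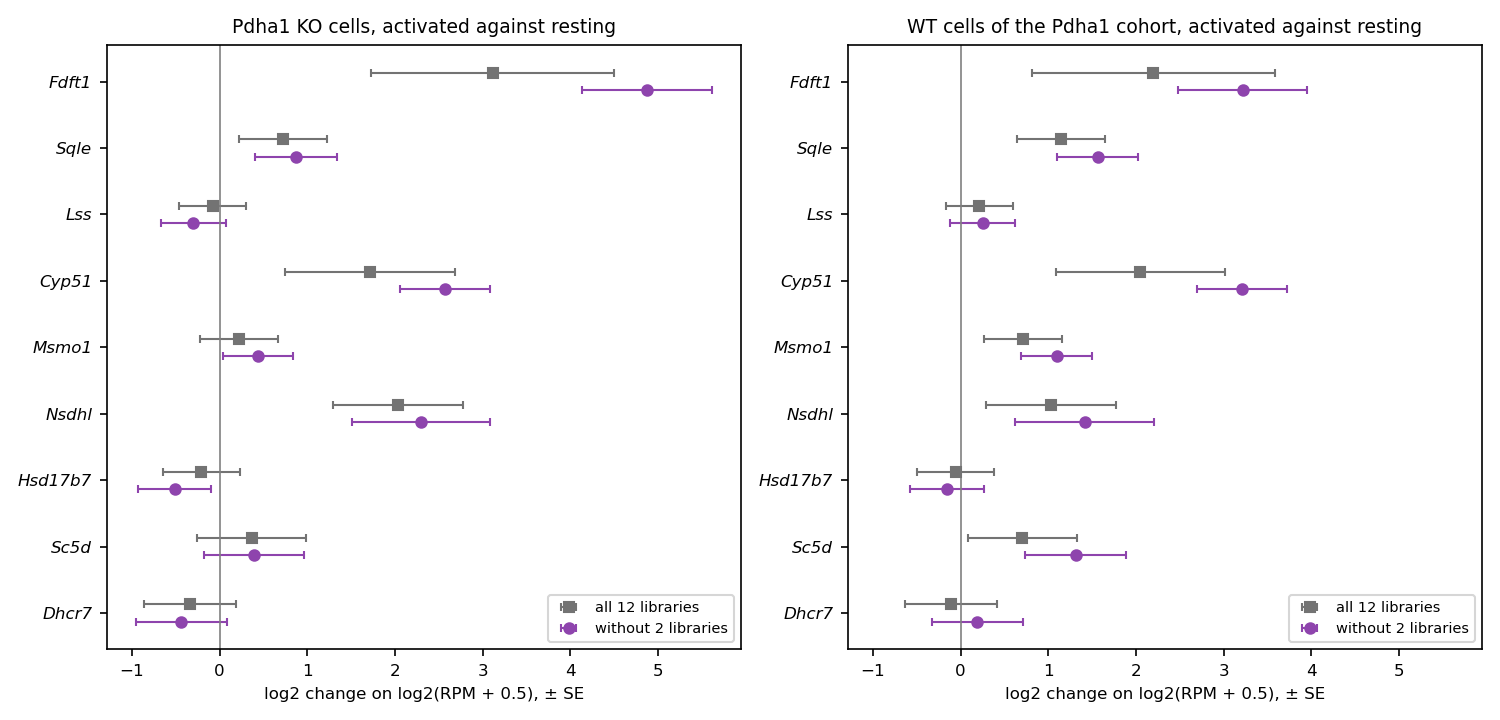
Log2 change of activated against resting cells of the Pdha1 cohort for Pdha1 KO cells (left) and WT cells (right), from limma on log2(RPM + 0.5), with all 12 libraries of the cohort (grey squares) and without the 2 that went against their labels (purple circles). Bars are standard errors; values right of 0 are higher after activation. Cyp51 lies at 1.72 with all libraries and 2.57 without the 2 in KO cells, and at 2.05 and 3.21 in WT cells.

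The interaction of Pdha1 genotype and activation called 0 of the 9 genes (0.0% of all genes), and so did the direct comparison of the cohorts. The median of the interaction was -0.29, against 0.21 over all genes. It was -0.63 without the 2 libraries (0.25 over all genes) and -0.19 without WT activated library 1 as well (-0.12 over all genes). The effect of Acly loss, less that of Pdha1 loss, was positive for 8 of the 9 in activated cells, with a median of 0.46, against -0.30 over the 35290 genes tested, and limma called 0 of the 9 and 0.0% of all genes. At an unadjusted p under 0.05, 1 of the 9 was higher, against 0.578% of all genes. This was Lss, at 1.22 ± 0.55 (limma, unadjusted p = 0.0311, adjusted p = 1). The median was 1.06 without the 2 libraries, against -0.36 over all genes, and 0.50 without Pdha1 WT activated library 1 as well, against -0.016 over all genes. The cohorts differ in the driver of Cre and in receptor-gene background as well as in the gene deleted. Erythroid marker sums reached 682 RPM in the Acly cohort and 19220 RPM in the Pdha1 cohort. Ddx3y was above Xist in every Pdha1 library but in only some Acly libraries. These differences cannot be told apart.

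The 9 genes followed one another unequally across libraries. As a description over all 24 libraries, which share state and background, Pearson's r of each gene's log2(RPM + 0.5) with the mean of the other 8 was 0.96 for Cyp51, 0.89 for Msmo1, 0.85 for Nsdhl, 0.84 for Fdft1, 0.83 for Sqle, 0.78 for Sc5d, 0.61 for Lss, 0.54 for Dhcr7 and 0.30 for Hsd17b7. Over the 12 Acly libraries with each state's mean taken off, r was 0.87 for Cyp51, 0.77 for Hsd17b7, 0.64 for Lss, 0.58 for Msmo1, 0.49 for Nsdhl, 0.43 for Dhcr7, 0.42 for Sqle, 0.36 for Fdft1 and -0.027 for Sc5d, so that the order of the genes differed between these descriptions. Among 4920 other protein-coding genes with a mean of at least 20 RPM, the 5 profiles most like the mean of the 9 included Idi1 (r = 0.96), Tfrc (0.96) and Acat2 (0.96). With the state's mean taken off, over the 12 Acly libraries, they included BC005537 (0.92), Pex7 (0.91), Tra2b (0.89) and Rsrc2 (0.88).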

How the data were processed

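The authors deposited a single table of RPM, reads scaled to 1000000 per library, for 46981 gene identifiers in 24 libraries. Per the labels' protocols, libraries were made from total RNA with strand kept, after depletion of ribosomal and globin transcripts, and sequenced as single reads of 75 bp. Per the submitters' processing notes the builds were mm10 and GRCm38. Which aligner, counter and annotation were used is not given in the sources used here. Every value above 0 in the deposited table came out as a whole count, within 0.01, after the scaling and a correction for collisions among 4096 identifiers were undone (100.0% in each library), although the labelled kit names no identifiers. Those recovered counts reached 4095 for any gene and 225 for the 9 genes, and intervals and floors made from them cover counting error only.

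Symbols and positions came from GENCODE release M21 on GRCm38. The test was limma's (version 3.58.1, R 4.3.3, with trend and robust) on log2(RPM + 0.5), with genes of at least 1 RPM in at least 3 libraries, in a fit per cohort of 12 libraries, or of all 24 for the comparison of cohorts. The pseudocount understates the fold of low genes. P-values were adjusted over all genes tested, with 0.05 as the threshold; they measure the spread between these libraries, and the labels do not say which libraries came from separate animals, although Xist and Ddx3y show libraries of both sexes in the activated Acly KO group and in the activated WT group of that cohort. Alternatives were a pseudocount of 0.1 or of 1, all genes unfiltered, a stricter filter of 5 RPM, TMM scaling, scaling to protein-coding genes outside the receptor families, a replicate block, only the groups compared, limma without trend and robust, 2 tests of the rounded, collision-corrected recovered counts (edgeR 4.0.16, DESeq2 1.42.0), fits without the 2 Pdha1 libraries that went against their labels, and each library left out in turn; the fit without 3 Pdha1 libraries was chosen after seeing the data. Each tool was tested on simulated data. The 9 genes, the lists and the comparisons were chosen with earlier results of these data known. Genes named are the 9, the targets, up to 3 per list with the lowest p in Acly KO against WT cells, and those among the 5 most alike (some genes these rules name are not reported here); Ctsb and Akap9, and Srebf2, Lbr, Abcg1, Ebp, Ggps1 and Por on activation, were chosen after their values were seen.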

Additional observations from a re-analysis of the deposited data

How the results depend on the processing

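The count of called sterol arm genes reported was above 0 only for activation of Acly KO cells (7) and of WT cells of that cohort (6). In the other comparisons a count that stayed was 0 again, which says little about stability. Of 131 such counts under alternative settings, 124 stayed within 1.5 times the count reported, and a fall to 4 in those WT cells was among them. The exceptions were 1 (Cyp51) in activated Acly KO against WT cells with only the groups compared, 1 (Fdft1) in resting Acly KO against WT cells without the filter, 2 and 2 on activation of Pdha1 KO cells without the 2 or the 3 Pdha1 libraries, 4, 2 and 1 (Cyp51, adjusted p = 0.0379) on activation of WT cells of that cohort without the 2, without the 3 and in DESeq2; the cause was not tested. Leaving out each library in turn gave counts of 0 to 1 for resting Acly KO against WT, 7 to 8 and 5 to 6 for activation of Acly KO and WT cells, and 0 to 2 for activation of WT cells of the Pdha1 cohort, the 2 (Sqle and Cyp51) without WT activated library 3; it gave 0 in the other comparisons. Estimates turned in sign for 3 genes that were not called, when WT cells of the Acly cohort were activated, under protein-coding scaling: Lss -0.16, Hsd17b7 -0.36 and Dhcr7 -0.33. With a library left out these ran over -0.026 to 0.68 for Lss, -0.25 to 0.44 for Hsd17b7 and -0.15 to 0.39 for Dhcr7.

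Scaling moved the median of all genes on activation of Acly KO cells from -0.67 to -0.39 (TMM) and -1.01 (protein-coding), and of WT cells from -0.61 to -0.29 and -0.88. In Acly KO cells 6483 genes were called higher and 8363 lower, against 7657 and 5163 with TMM and 5277 and 11542 with protein-coding scaling; in WT cells the numbers were 6700 and 7447, 7811 and 4574, and 5474 and 10266. Counts over all genes in activated and resting Acly KO against WT cells ran from 0 to 39 and 0 to 119 over 23 settings, where limma as reported called 2 and 0. Same-numbered libraries did not deviate together in every pair (r from -0.28 to 0.27), so numbers were not taken as pairs. The lowest r, -0.28 and -0.24, came from pairs holding the 2 Pdha1 libraries that went against their labels. In Acly activation each library correlated best with its own number (r from 0.023 to 0.13). In that cohort the higher of Xist and Ddx3y was the same in both states for each genotype and number. The replicate block joined KO and WT libraries of a number, and a fit pairing the states within a genotype was not run. The replicate block called 8 genes on activation of Acly KO cells, adding Dhcr7 (adjusted p = 0.0444), and left the count of sterol arm genes called as it was in the other comparisons. At 0.677 to 2.28 RPM per count, resting levels of Fdft1, Nsdhl and Cyp51, and of Sqle in WT cells of the Acly cohort, are too low for small differences to be detectable. Nsdhl could not be tested in the Pdha1 cohort under the filter of 5 RPM, and the interactions have no fit with only the groups compared.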
